A study of Homo sapiens with 12 samples.

Results

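The 35 genes described here encode factors that make ribosomes, and they were chosen by symbol from the 24359 gene symbols measured in the series. For each symbol the transcript row with the highest mean over the 6 PC-3M libraries was taken, and all 35 genes passed the filter on low values in PC-3M. Total RNA was sequenced from 2 human cell lines, PC-3M, a metastatic prostate cancer line derived from PC-3 (passage 11), and MCF10A, a non-transformed breast epithelial line (passage 13). Each line received either control siRNA or siRNA against KMT9a, the methyltransferase encoded by N6AMT1, with 3 libraries for each of the 4 groups. No other treatment is labelled. The replicates are labelled as biological, but nothing says whether they came from separate cultures, so that the spread behind each p-value may be technical. The labels describe siRNA treatment without naming the siRNA sequences, so effects particular to a sequence and effects of losing KMT9a cannot be told apart here.

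A ribosome is built in the nucleolus, where RNA polymerase I transcribes a long precursor that is cut, chemically modified and folded into the rRNAs of both subunits. Small nucleolar ribonucleoproteins (snoRNPs) guide the modification, a large complex called the small subunit processome folds and cuts the precursor of the small subunit, and a succession of assembly factors matures the large subunit before export. These genes are textbook targets of the transcription factor MYC and are usually abundant in growing cancer cells.

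In PC-3M, 40236221 to 53401603 read ends per library fell in genes, and each member was backed by 691 to 71339 read ends per library. In MCF10A there were 181064 to 255642. The knockdown was visible in PC-3M, where N6AMT1 stood at 11.4, 12.0 and 11.0 CPM (read counts scaled for depth) in the control libraries and at 3.01, 2.58 and 2.83 CPM with KMT9a siRNA. TRMT112, the partner subunit of the enzyme, fell by 0.51 on the log2 scale. Of the knockdown libraries, replicate 2 stood apart. Its chi-square per degree of freedom, here and below with read ends counted in pairs, was 11.1 and 13.4 against its group. Between replicates 1 and 3 it was 2.37. Among the 35 genes it held the highest of the 3 knockdown values for 15 and the lowest for 18. All 5 epithelial markers were at or above 1 CPM in PC-3M, among them the keratin genes KRT8 and KRT18; the prostate luminal marker KLK3 was at 0 to 0.106 CPM. The summed level of 5 leukocyte markers was 0.549 to 0.666 CPM in the controls and 3.16 to 4.42 CPM with KMT9a siRNA, that of 5 endothelial markers 40.5 to 48.3 and 10.3 to 11.3 CPM, and that of 5 fibroblast markers 59.4 to 60.7 and 41.8 to 51.2 CPM. The summed level of 5 basal epithelial markers was 69.0 to 72.4 CPM in the controls and 862 to 1028 CPM with KMT9a siRNA. Most of that rise was ITGB4, at 20.2 to 24.7 and then 665 to 848 CPM, and DSC3, at 45.1 to 49.7 and then 179 to 215 CPM. TP63 rose from 0.106 to 0.185 CPM to 0.765 to 1.11 CPM. The basal keratin gene KRT5 was at 0.129 to 0.230 and then 0.0248 to 0.0445 CPM, and KRT14 did not exceed 0.0523 CPM in any PC-3M library. Single genes made up most of some sums: KDR alone was 39.9 to 47.9 and then 7.79 to 8.37 CPM, while the endothelial marker PECAM1 was 0.259 to 0.549 and then 2.00 to 2.28 CPM. Most of the fibroblast sum was COL1A1, at 49.0 to 50.6 and then 29.5 to 39.5 CPM. PDGFRA, another fibroblast marker, was at 9.08 to 9.53 and then 11.1 to 12.4 CPM. The fibroblast marker DCN and the endothelial marker VWF were at 0 in every PC-3M library. The part of these shifts in the results was not tested.

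Most ribosome biogenesis genes were lower in PC-3M with KMT9a siRNA, by modest amounts. Of the 35 genes, 25 fell and 7 rose at an adjusted p under 0.05 (limma, adjusted over 14958 tested genes), and 3 did not pass. Among all tested genes 37.3% were lower and 37.2% were higher by the same rule, 74.5% in all. Of the 7915 genes at or above the lowest mean of a member, 18.7 CPM, 40% were lower and 42% higher, 81.9% in all. The median log2 fold change of the members was -0.35, against 0.0011 over all tested genes, and the range was -1.28 to 0.53. Only RRP12 changed by 2-fold or more, as did 3651 of the 14958 tested genes and 1433 of the 7915. Control and knockdown libraries did not overlap for 33 of the 35 genes, where 77% of all tested genes did not overlap. Each knockdown library showed the shift, with a median log2 ratio to the control mean of -0.31, -0.36 and -0.33 for replicates 1, 2 and 3. In each of them 26 of the 35 genes lay below their control mean. In bulk RNA, fewer cells of a kind and less RNA per cell cannot be told apart. Scaling by library totals alone, which moved the median of all genes to -0.17 and gave 45.6% lower and 29.3% higher genes, left 27 members lower and 4 higher, with a median of -0.52.

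**Figure D1:**
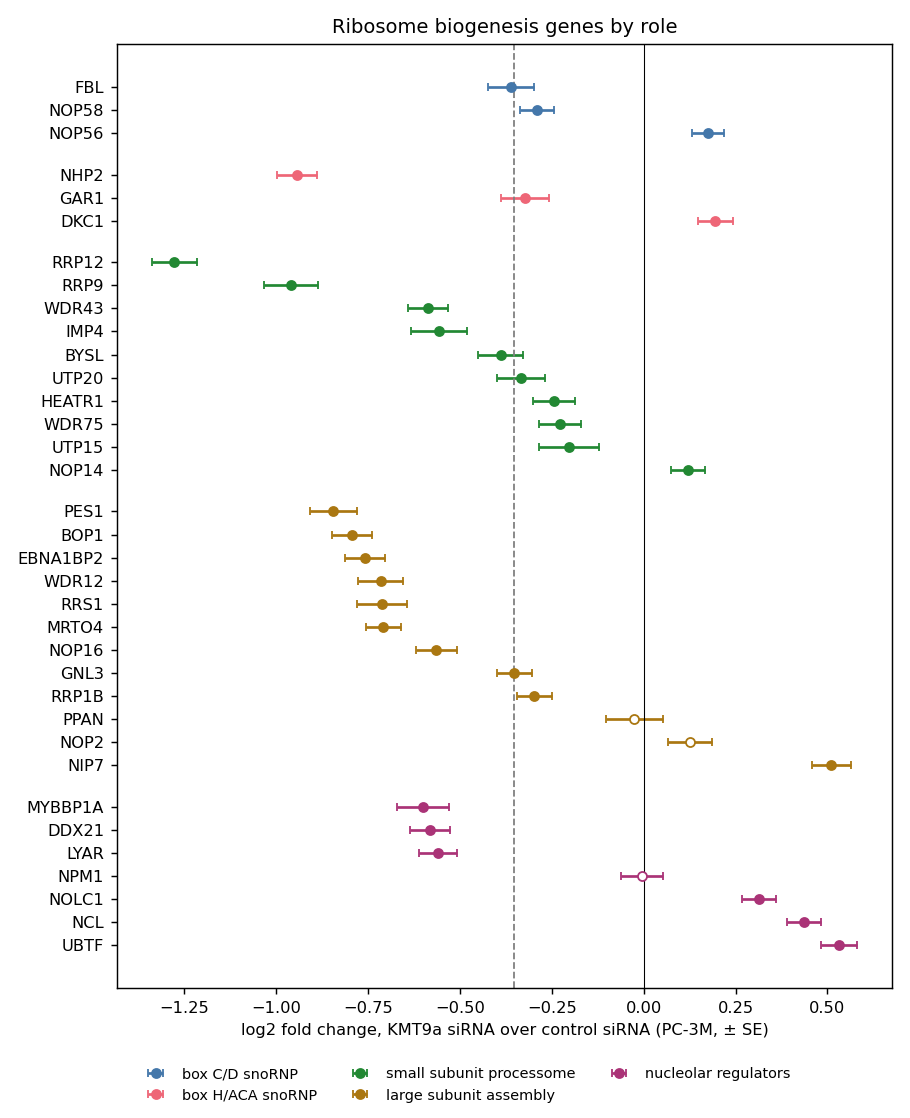
Log2 fold change (x axis, points with SE bars) of each of the 35 genes (y axis) between 3 KMT9a siRNA and 3 control siRNA libraries of PC-3M, in colours and blocks by role, with filled points past an adjusted p of 0.05 in limma. The dashed line is the members' median of -0.35; RRP12 lies lowest at -1.28 and UBTF highest at 0.53, and with scaling by library totals alone NOP14 and NOP2 lie below 0.

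**Figure D2:**
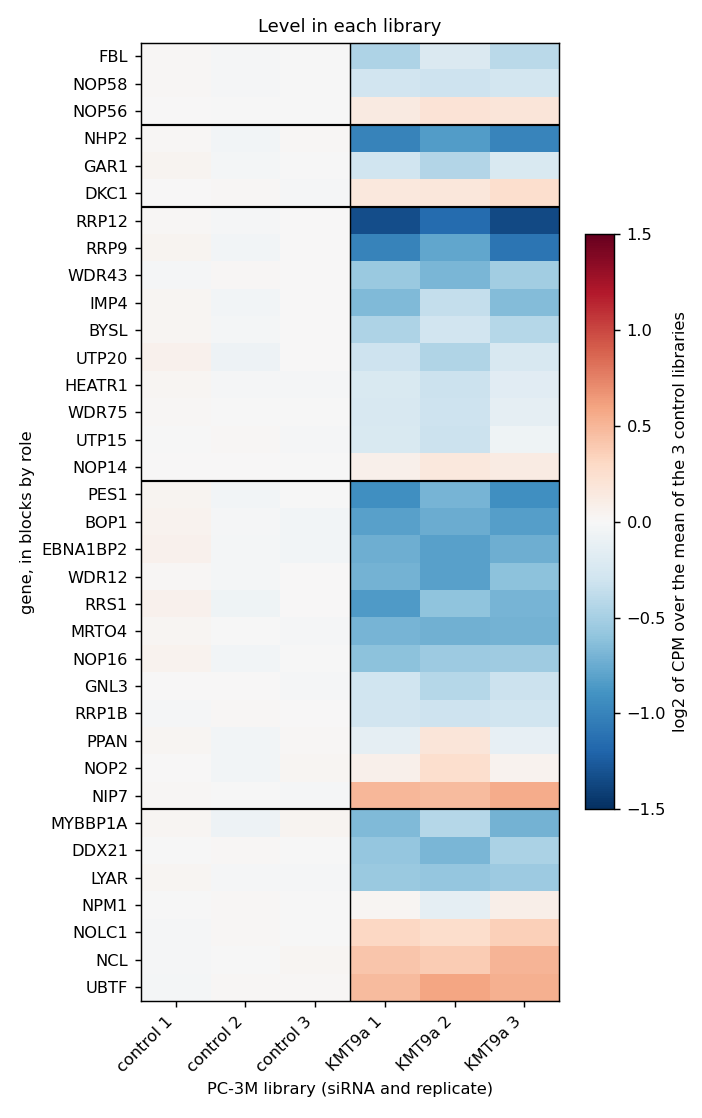
Level of each gene (rows, in blocks by role) in each PC-3M library (columns), as the log2 ratio of its CPM to the mean of the 3 control libraries. The control columns are nearly white and the knockdown columns are mostly blue, with red rows for UBTF, NCL, NOLC1 and NIP7, which stay higher with scaling by library totals alone, and pale red rows for DKC1, NOP56, NOP14 and NOP2, of which NOP14 and NOP2 turn below 0 under that scaling.

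The members' spread was small beside these shifts in the controls and larger with KMT9a siRNA. The coefficient of variation over the 3 control libraries had a median of 1.76% and reached 5.19% for UTP20. Over the 3 knockdown libraries its median was 6.20%, and the highest value was 13.1% for PPAN. Levels were compared between genes as CPM per kilobase of the chosen transcript. In the controls they ran from 5.50 CPM per kilobase for UTP15 to 888 for NPM1, and 32 of the 35 genes lay in the top 25% of tested genes. Across the 35 genes the log2 fold change bore little relation to the level per kilobase (Pearson's r 0.016, Spearman's rho -0.079; the genes share the same 6 libraries, so this is a description).

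The members' promoters were searched for the canonical E-box CACGTG, the letters that MYC and MAX bind, which reads the same on both strands. RefSeq promoter windows on GRCh38.p14, from 250 bases before to 50 bases after the start site, matched 29 of the 35 genes (all but NOP58, RRP12, BOP1, RRS1, RRP1B and NOLC1). CACGTG was present in 12 of the 29 windows, or 41.4%. It was present in 9.96% of 10739 windows of tested genes, in 7.43% of 27305 windows of all genes, and in 22.3% of 130 windows of the 5 other pathway lists given further on. By direction, 10 of 20 matched genes that fell held it, 1 of 6 that rose (NOP14) and 1 of 3 that did not pass (NOP2). By role, it was found in 6 of 9 small subunit processome genes, 4 of 9 large subunit assembly genes, 1 of 6 nucleolar regulators, 1 of 2 box C/D genes and 0 of 3 box H/ACA genes. In 9 of the 12 windows the copy nearest the start site began after it, at positions 4 to 36, and in RRP9 and UTP20 it began 5 and 10 bases before it. EBNA1BP2 held its copy far upstream, at position -237. The windows around that copy, 5′ to 3′ on the strand of the gene with the E-box in capitals, are shown to compare its setting between genes:
RRP9, chr3:51941892-51941921 (minus strand): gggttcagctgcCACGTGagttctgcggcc
WDR43, chr2:28894658-28894687 (plus strand): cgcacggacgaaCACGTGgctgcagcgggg
IMP4, chr2:130342900-130342929 (plus strand): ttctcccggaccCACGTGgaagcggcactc
UTP20, chr12:101280083-101280112 (plus strand): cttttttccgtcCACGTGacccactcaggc
BYSL, chr6:41921515-41921544 (plus strand): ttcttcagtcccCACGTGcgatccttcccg
NOP14, chr4:2963374-2963403 (minus strand): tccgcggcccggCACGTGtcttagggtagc
PES1, chr22:30591880-30591909 (minus strand): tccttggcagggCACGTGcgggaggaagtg
EBNA1BP2, chr1:43172790-43172819 (minus strand): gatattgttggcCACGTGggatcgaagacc
MRTO4, chr1:19251807-19251836 (plus strand): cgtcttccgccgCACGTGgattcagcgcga
NOP2, chr12:6568242-6568268 (minus strand): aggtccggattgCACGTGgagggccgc
FBL, chr19:39846356-39846385 (minus strand): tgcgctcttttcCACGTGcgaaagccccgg
MYBBP1A, chr17:4555340-4555369 (minus strand): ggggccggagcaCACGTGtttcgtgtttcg
The flanks differ between the genes, and the E-box is the stretch they share. The full 300-base windows of RRP9 and PES1, which had the deepest falls among the genes with an E-box, are shown for the wider setting, again with the E-box in capitals:
RRP9, chr3:51941855-51942154 (minus strand): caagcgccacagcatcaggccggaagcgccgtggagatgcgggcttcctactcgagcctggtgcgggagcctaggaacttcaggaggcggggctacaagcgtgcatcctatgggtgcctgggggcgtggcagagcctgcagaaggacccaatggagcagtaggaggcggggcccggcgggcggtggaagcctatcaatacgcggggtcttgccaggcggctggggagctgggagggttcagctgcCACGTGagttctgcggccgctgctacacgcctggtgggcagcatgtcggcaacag
PES1, chr22:30591861-30592160 (minus strand): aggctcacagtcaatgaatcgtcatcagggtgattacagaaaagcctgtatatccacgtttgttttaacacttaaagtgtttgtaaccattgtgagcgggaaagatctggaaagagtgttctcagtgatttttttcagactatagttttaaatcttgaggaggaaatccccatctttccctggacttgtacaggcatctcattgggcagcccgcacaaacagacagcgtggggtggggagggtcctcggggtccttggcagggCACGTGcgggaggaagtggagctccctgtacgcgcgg
In each of these windows the E-box occurs once and lies beside the start site. MYC itself stood at 1827, 1856 and 1872 CPM in the control libraries and at 1538, 1652 and 1547 CPM with KMT9a siRNA, without overlap (log2 -0.23, SE 0.0453, limma, adjusted p = 0.000508). Over the MYC network list 11 of 12 genes were tested, and 6 were higher and 4 lower, where 37.2% of all tested genes were higher and 37.3% lower. Of the genes for MYC antagonists named here, MXI1 and MXD3 fell by 0.72 and 0.53, and MXD1 and MXD4 rose by 0.66 and 0.80 on the log2 scale. MLX, which encodes a MAX-like partner protein, fell by 0.76, and MGA, which encodes another partner of MAX, rose by 0.57. Whether MYC binds these windows, or whether MYC or the E-box had a part in the members' changes, was not tested.

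**Figure D3:**
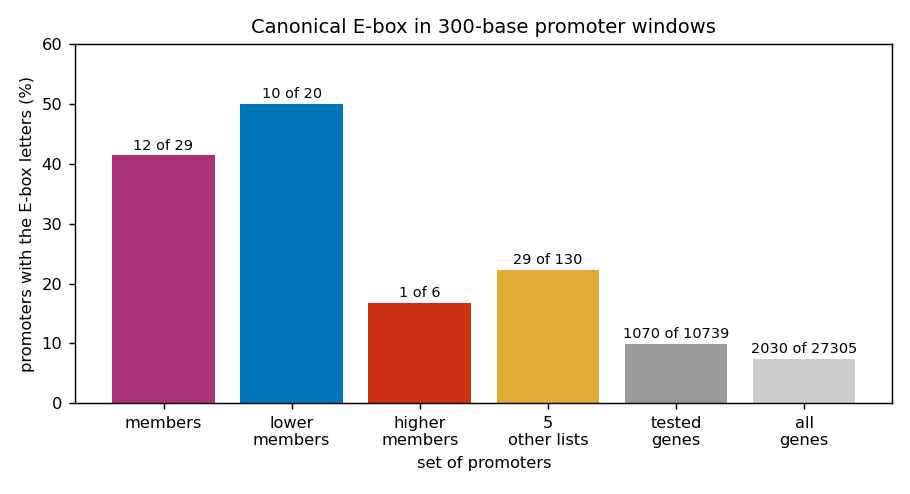
Share of 300-base promoter windows that hold CACGTG (y axis, percent), with the number of windows above each bar, for the members, for lower and higher members in PC-3M, for the 5 other pathway lists, for tested genes and for all genes. Members stand at 41.4% and all genes at 7.43%; NOP14, the higher member with an E-box, is not higher with scaling by library totals alone.

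The core proteins of the snoRNPs did not move together. Box C/D snoRNPs methylate rRNA, with FBL, which encodes the methyltransferase fibrillarin, and with the paired scaffold proteins encoded by NOP56 and NOP58. FBL fell from 120 ± 1.74 to 94.0 ± 8.38 CPM (SD, n = 3; log2 -0.36, SE 0.0634, limma, adjusted p = 0.000211), and NOP58 fell from 157 ± 2.03 to 128 ± 1.83 CPM (-0.29). NOP56 (hg19 chromosome 20, 2633178 to 2639039, plus strand) had the highest level per kilobase of the group. It stood at 283, 281 and 280 CPM in the controls and at 309, 324 and 320 CPM with KMT9a siRNA, so that the groups did not overlap (0.18, SE 0.0442, adjusted p = 0.00302), but the rise was 0.0041 with scaling by library totals alone. Its chosen transcript row is noncoding; the coding row gave 0.19 in a fit over all transcript rows.

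Box H/ACA snoRNPs convert uridine to pseudouridine, with DKC1 encoding the catalytic protein dyskerin and NHP2 and GAR1 encoding partners. NHP2 (chromosome 5, 177576465 to 177580961, minus strand) showed the largest fall of the snoRNP genes among the members. Its level was 203, 195 and 201 CPM in the control libraries and 99.9, 111 and 100.5 CPM in the knockdown libraries, 1.92-fold lower (log2 -0.94, SE 0.055, limma, adjusted p = 8.28e-09). Every knockdown library lay far below every control library. GAR1 fell from 59.4 ± 1.51 to 47.6 ± 3.36 CPM (-0.32; SD, n = 3). DKC1 (chromosome X, 153991031 to 154005964, plus strand) went from 219, 221 and 216 CPM to 244, 247 and 260 CPM, without overlap (0.20, SE 0.0464, adjusted p = 0.00207), and its rise was 0.024 and no longer passed with scaling by library totals alone (adjusted p = 0.674).

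A ratio of partner genes within a library does not depend on the scaling between libraries. These ratios were chosen after the values had been seen and carry no test. The ratio of NHP2 to DKC1, in CPM per kilobase, was 2.75 ± 0.0802 in the controls and 1.25 ± 0.0988 with KMT9a siRNA (SD, n = 3). GAR1 to DKC1 went from 0.552 ± 0.0156 to 0.386 ± 0.0213. FBL to NOP56 went from 0.809 ± 0.00797 to 0.559 ± 0.0390, and NOP58 to NOP56 from 0.624 ± 0.00453 to 0.452 ± 0.0152. None of these 4 ratios overlapped between the groups.

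**Figure D4:**
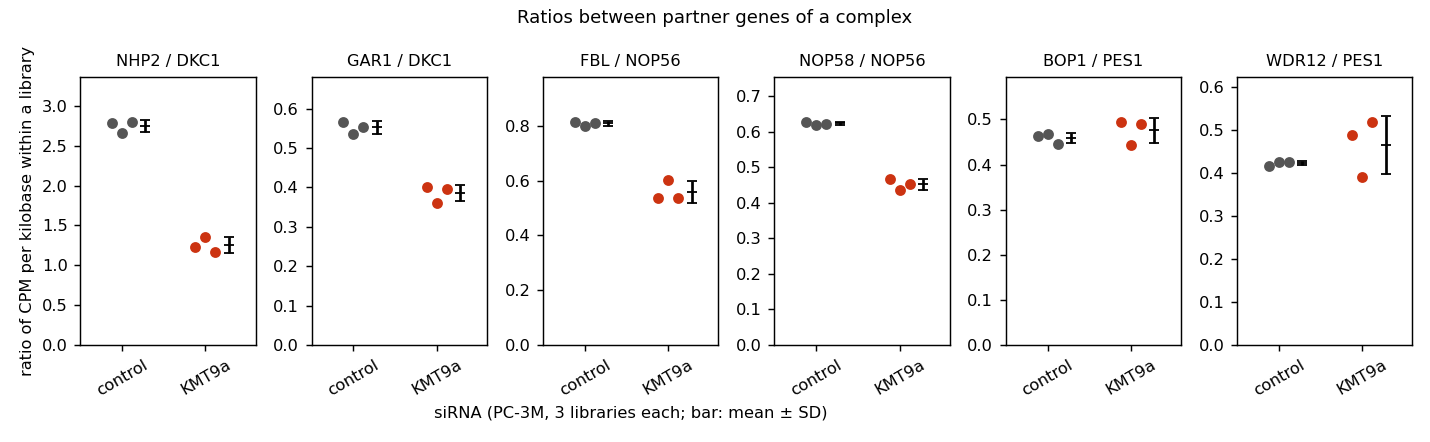
Ratio of CPM per kilobase of partner genes within each PC-3M library (y axes from 0), with control siRNA in grey and KMT9a siRNA in red, 3 libraries each, and mean ± SD beside the points. The 4 snoRNP ratios are lower in every knockdown library, while BOP1 to PES1 (means 0.460 and 0.476) and WDR12 to PES1 (0.423 and 0.466) overlap between the groups only through KMT9a siRNA replicate 2.

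Genes of the small subunit processome fell in 9 of 10 cases, with a median log2 fold change of -0.36. Of all genes at or above the lowest member mean, 40% were lower and 42% higher. RRP12 (chromosome 10, 99116458 to 99161127, minus strand), which encodes a HEAT-repeat protein needed for maturation and export of pre-ribosomes, fell most of all members. It stood at 141, 138 and 140 CPM in the controls and at 55.6, 62.9 and 54.7 CPM with KMT9a siRNA, 2.42-fold lower (log2 -1.28, SE 0.0607, limma, adjusted p = 1.29e-09). RRP9 (chromosome 3, 51967446 to 51975922, minus strand) encodes a protein of the U3 snoRNP, which base-pairs with the precursor, and had the highest level per kilobase of this group. Its levels were 151, 143 and 147 CPM and then 73.2, 85.5 and 68.6 CPM, 1.94-fold lower (-0.96, SE 0.0728, adjusted p = 9.76e-08). The knockdown libraries lay well below the controls for both genes.

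Of the subcomplex that joins the precursor first, WDR43 fell by 0.59 on the log2 scale, while HEATR1 (-0.24), WDR75 (-0.23) and UTP15 (-0.20) fell less. UTP15, the lowest member at 19.9 ± 0.218 CPM in the controls and 17.4 ± 1.63 CPM with KMT9a siRNA (SD, n = 3), was close to the threshold (limma, adjusted p = 0.0379) and missed it when any library other than KMT9a siRNA replicate 3 was left out (adjusted p = 0.0715 to 0.0984). IMP4, a partner of the U3 snoRNP, fell by 0.56, BYSL, which encodes the late small subunit factor bystin, by 0.39, and UTP20 by 0.33. NOP14 was the exception. It rose from 175 ± 0.151 to 190 ± 4.89 CPM (0.12, SE 0.0459, limma, adjusted p = 0.0301), turned to -0.051 with scaling by library totals alone, and missed the threshold without each control library in turn and without KMT9a siRNA replicate 3 (adjusted p = 0.0816 to 0.116).

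Genes of large subunit assembly fell in 9 of 12 cases and rose in 1, with a median of -0.64. Here too the shares to compare are 40% lower and 42% higher, over genes at or above the lowest member mean. PES1, BOP1 and WDR12 encode the PeBoW complex, which is needed to process the precursor of the large subunit rRNAs, and they fell by similar amounts. PES1 (chromosome 22, 30972612 to 30987927, minus strand) went from 203, 192 and 197 CPM to 104, 122 and 104 CPM (log2 -0.84, SE 0.0637, limma, adjusted p = 9.34e-08). BOP1 (chromosome 8, 145486056 to 145515120, minus strand) went from 97.9, 93.3 and 91.4 CPM to 53.6, 56.2 and 53.2 CPM (-0.79, SE 0.0547, adjusted p = 3.93e-08). For both genes every knockdown library lay below every control library. WDR12 fell from 83.6 ± 1.47 to 51.0 ± 3.41 CPM (-0.72; SD, n = 3). The ratios of BOP1 and of WDR12 to PES1 overlapped between the groups through KMT9a siRNA replicate 2, the library that stood apart. BOP1 to PES1 was 0.446 to 0.468 in the controls, 0.495 and 0.489 in knockdown replicates 1 and 3, and 0.444 in replicate 2. WDR12 to PES1 was 0.417 to 0.426 in the controls, 0.489 and 0.519 in replicates 1 and 3, and 0.390 in replicate 2. Both ratios were thus above the controls in replicates 1 and 3 and below them in replicate 2.

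Apart from the PeBoW genes, the large subunit assembly genes that were lower past the threshold fell by 0.30 to 0.76. NIP7, NOP2 and PPAN, given in the next paragraph, were not among them. EBNA1BP2 fell by 0.76, RRS1, needed to bring the 5S ribonucleoprotein into the particle, by 0.71, and MRTO4, a placeholder for the stalk protein P0, by 0.71 on the log2 scale. NOP16 fell by 0.56 and RRP1B by 0.30. GNL3 (chromosome 3, 52719936 to 52728510, plus strand), which encodes the nucleolar GTPase nucleostemin, had the highest level per kilobase of this group, 158 CPM per kilobase in the controls. Its levels were 319, 319 and 314 CPM and then 257, 236 and 253 CPM, without overlap (-0.35, SE 0.048, limma, adjusted p = 2.37e-05).

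NIP7 went the other way. It encodes a late nucleolar factor, and its transcript (chromosome 16, 69373415 to 69377013, plus strand) rose from 58.7, 57.9 and 57.3 CPM to 82.0, 80.4 and 85.6 CPM (0.51, SE 0.0528, limma, adjusted p = 1.83e-06). No knockdown library overlapped the controls. NOP2, which encodes an rRNA cytosine methyltransferase, stood at 118 ± 2.72 and 129 ± 9.85 CPM (SD, n = 3; adjusted p = 0.0737), with a fold change that passed without KMT9a siRNA replicate 3 (0.15, adjusted p = 0.0453) and turned to -0.046 with scaling by library totals. PPAN stood at 120 ± 3.36 and 119 ± 15.5 CPM (SD, n = 3; adjusted p = 0.775). KMT9a siRNA replicate 2 was high for it at 136 CPM, against 109 and 110.2 CPM in the other knockdown libraries. Without that library PPAN was lower (-0.13, adjusted p = 0.00440).

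The multifunctional nucleolar proteins were divided, with 3 genes lower, 3 higher and 1 not past the threshold. This split was near that of all genes at or above the lowest member mean, of which 40% were lower and 42% higher. UBTF encodes the upstream binding factor that opens rDNA for RNA polymerase I, and it showed the largest rise of the 35 genes. Its transcript (chromosome 17, 42282401 to 42298994, minus strand) stood at 160, 165 and 166 CPM in the controls and at 227, 245 and 237 CPM with KMT9a siRNA, 1.45-fold higher (log2 0.53, SE 0.0487, limma, adjusted p = 5.77e-07). Its 4 transcript rows rose by 0.52 to 0.53. NCL (chromosome 2, 232319459 to 232329205, minus strand), encoding nucleolin, an abundant RNA-binding protein of the nucleolus, rose from 897, 902 and 924 CPM to 1212, 1185 and 1291 CPM (0.44, SE 0.0465, adjusted p = 2.42e-06). For both genes all knockdown libraries lay above all controls.

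NOLC1 (chromosome 10, 103911933 to 103923627, plus strand), whose product chaperones snoRNPs, rose from 261, 266 and 263 CPM to 327, 316 and 338 CPM (0.31, SE 0.0456, limma, adjusted p = 4.19e-05). NPM1 (chromosome 5, 170814708 to 170837888, plus strand) encodes nucleophosmin and had the highest level of all members. It stood at 1262, 1281 and 1263 CPM and then at 1297, 1154 and 1352 CPM, with overlapping groups (-0.0045, SE 0.0568, adjusted p = 0.947). KMT9a siRNA replicate 2 was the low knockdown library; without it the fold change was 0.06 (adjusted p = 0.0540), and with scaling by library totals alone it was -0.18 and passed (adjusted p = 0.0165). The helicase gene DDX21 fell from 544 ± 4.75 to 364 ± 26.4 CPM (-0.58), MYBBP1A, encoding a nucleolar MYB-binding protein, by 0.60 and LYAR by 0.56 on the log2 scale.

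Other genes of the pathway were also more often lower than higher. In 5 lists that hold no member, 96 of 152 genes were lower, 30 were higher and 26 did not pass, with a median of -0.28. That is 63.2% lower and 19.7% higher, where 37.3% of all tested genes were lower and 37.2% higher. Scaling by library totals gave 113 lower and 18 higher genes, where 45.6% of all tested genes were lower and 29.3% higher. Of 45 other small subunit factors, 28 were lower and 8 higher (median -0.30). The helicase gene DDX10 fell from 127 ± 2.77 to 56.0 ± 2.66 CPM (-1.18), the rRNA methyltransferase gene EMG1 by 1.06 and WDR3 by 0.87, while RCL1 (1.07), KRR1 (0.44) and DIEXF (0.31) rose. Of 45 other large subunit factors, 26 were lower and 10 higher (median -0.17). GNL2, a GTPase gene related to GNL3, fell from 159 ± 1.53 to 67.2 ± 2.40 CPM (-1.24), RPF2 by 1.21 and NOC2L by 0.95, and the ATPase genes SPATA5 (1.15) and NVL (0.69) and the helicase gene DDX55 (0.74) rose.

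Factors that assemble snoRNPs, with the remaining core proteins, numbered 15, of which 12 were lower and 1 was higher (median -0.39). Beside this and the next 2 lists, 37.3% of all tested genes were lower and 37.2% higher. SNU13, which encodes the box C/D core protein that binds the snoRNA first, fell from 256 ± 2.19 to 109 ± 7.42 CPM (-1.24; SD, n = 3). The ATPase gene RUVBL1 fell by 1.15 and ZNHIT3 by 1.70, and COIL, encoding coilin, rose by 0.58. Of 21 genes of RNA polymerase I transcription, 14 were lower and 6 higher (median -0.28). CD3EAP, a subunit gene of the polymerase, fell by 1.17 and the shared subunit gene POLR2H by 1.01, while TAF1B (0.56) and TAF1D (0.63), of the selectivity factor that recruits the polymerase, and SIRT7 (0.80) rose. POLR1D fell by 0.85 in the row with the highest mean and rose by 0.64 in the longest row, so its direction depends on the transcript. Of 26 genes for cutting and trimming the precursor, 16 were lower and 5 higher (median -0.32). EXOSC5, an exosome subunit gene, fell from 20.7 ± 1.36 to 4.10 ± 0.940 CPM (-2.35; SD, n = 3), MPHOSPH6 by 1.75 and POP7 by 1.56; POP5 (0.66), the exonuclease gene XRN2 (0.44) and ISG20L2 (0.35) rose.

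**Figure D5:**
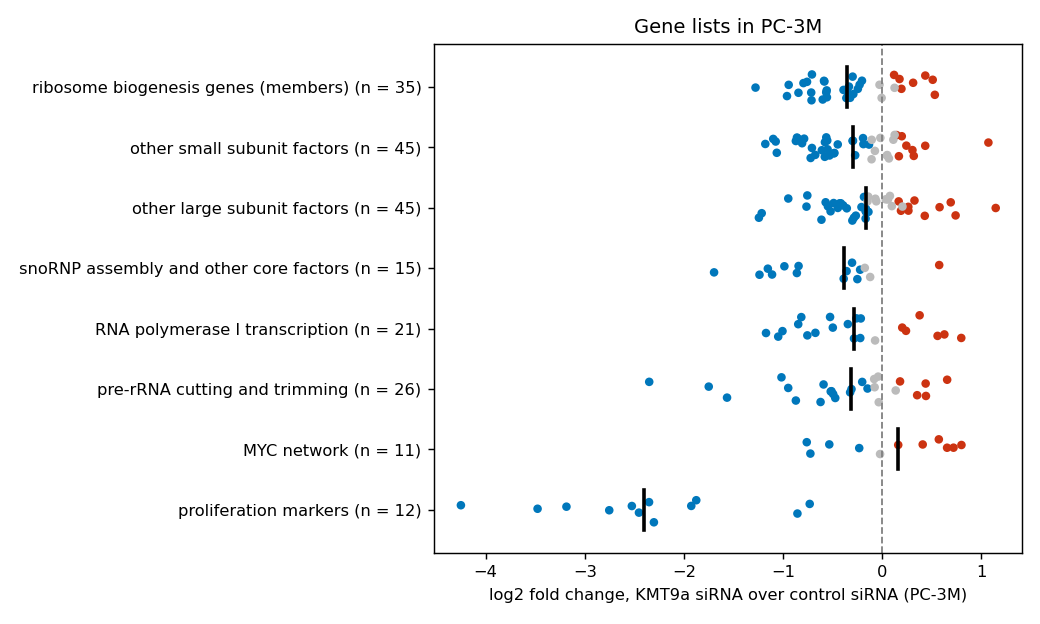
Log2 fold change in PC-3M (x axis) of each tested gene of the members and of 7 other lists (rows), blue where lower, red where higher and grey where not past an adjusted p of 0.05 in limma, with a black bar at each median and a dashed line at the median of all tested genes. Medians of the members (-0.35) and the 5 pathway lists (-0.17 to -0.39) lie left of the line, and proliferation markers lie furthest left at -2.40; with scaling by library totals alone the members NOP14 and NOP2 turn below 0.

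Proliferation markers fell, with a median of -2.40 against -0.35 for the members. All 12 were lower, with adjusted p of 1.35e-06 or lower in limma, where 37.3% of all tested genes were lower. BIRC5 fell by 4.25, MKI67 by 3.19 and CCNB1 by 2.35 on the log2 scale. Their part in the result was not tested.

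In MCF10A most members had almost no reads, far fewer than their PC-3M shares would give at this depth. It could not be settled whether these columns hold the expression of this line as labelled, so the MCF10A values are given as deposited counts and carry that doubt. Of the 35 genes, 3 passed the filter, 10 were at 0 in all 6 libraries, and the other 22 had at most 4 read ends in any library. Counts of 0 in a library allow up to 23.5 to 33.1 CPM in read pairs (3 pairs, counting error only). NCL had 0, 0 and 4 read ends in the control libraries and 0, 0 and 1 with KMT9a siRNA, where its share of the PC-3M control libraries would have given 174 to 246. NPM1 had 0, 0 and 0, then 2, 0 and 2 read ends, against 244 to 344 at its PC-3M share. At those shares 34 of the 35 genes would have had more than 10 read ends. Of 5 epithelial markers, 4 were detected and CDH1 was at 0 in all 6 libraries, with a summed level of 17.5 to 90.0 CPM in the controls and 26.6 to 245 CPM with KMT9a siRNA. Of 5 basal epithelial markers, 2 were detected and KRT5, DSC3 and ITGB4 were at 0 in all 6 libraries, with a summed level of 0 to 17.2 CPM and 10.6 to 636 CPM.

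The 3 measured members were NOP58, MRTO4 and UBTF. NOP58 had 42, 47 and 56 read ends with control siRNA and 54, 20 and 58 with KMT9a siRNA, where its PC-3M share would have given 30.1 to 42.5. MRTO4 had 84, 90 and 96, then 104, 110 and 67, against 24.6 to 34.7 at its PC-3M share. UBTF had 23, 19 and 26, then 30, 14 and 26. The groups overlapped in read ends for all 3 genes, and limma called 0 of them (adjusted p = 0.975, 0.709 and 0.706), with 0 at an unadjusted p under 0.05 and 0 by edgeR. Among the 1049 tested genes limma called 0.477% and edgeR called 6 genes. KMT9a siRNA replicate 2, which held the lowest values of NOP58 and UBTF, stood apart in MCF10A as well, with a chi-square per degree of freedom of 14.7 and 21.3 against its group, and 2.53 between replicates 1 and 3. With read ends counted in pairs, control replicates 1 and 2 of MCF10A differed by less than sampling noise. Their chi-square per degree of freedom was 0.791, and it was 1.06 and 1.30 for the other control pairs. Of their low values 52.7% and 52.0% were even numbers of read ends, so some ends were counted singly. Without pairing the chi-square would be larger. Replicates 1 and 2 may be 1 library, which was not tested. Counted as 1 sample they left 0 members called. The difference between the lines was not tested.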

How the data were processed

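Values came from 2 tables, 1 for each cell line, in which the authors deposited a scaled signal for 38763 RefSeq transcript rows with hg19 coordinates, per the file headers, together with the authors' deposited p-value, adjusted p-value and log2 ratio for each row. STAR, HOMER, edgeR and hg19 are listed, per the submitters' processing notes; versions, settings and strand handling are not given in the sources used here. Sums of the columns are close to one another within a table. All values above 0 (100%) were whole multiples of a step per library within 0.1 step, so whole read ends were recovered; on these reads edgeR gave 5595 higher and 5552 lower genes for PC-3M.

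The test was limma 3.58.1 with a mean-variance trend in R 4.3.3, run within each table on TMM-scaled values to which a pseudocount of 1 was added before the log2 step; this understates low genes' changes. The filter of edgeR 4.0.16 (minimum count 10, minimum total 15) kept 14958 PC-3M genes and 1049 MCF10A genes; p-values were adjusted by Benjamini-Hochberg over them. CPM are TMM-scaled, relative to tested genes. Alternatives were DESeq2 1.42.0, the edgeR test, other scalings, filters, pseudocounts of 0.25 and 5, the longest transcript row, the replicate number as a block, and each library left out. By the authors' deposited table, the counts past 0.05 are 25 members lower and 6 higher, with the sign found here for all 35.

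The members, the lists and the rule for named genes were chosen with earlier results of these data known. The rule named the 5 lowest and 5 highest members past the threshold, the member with the highest level per kilobase in each role, and up to 3 genes per direction in each list. Reads of overlapping genes can be shared, which concerns BOP1, GNL3, HEATR1, MYBBP1A, NIP7, NOP14, PES1 and PPAN, and strand is unknown; pseudogene copies make NPM1 uncertain.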

Additional observations from a re-analysis of the deposited data

How the results depend on the processing

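In PC-3M, 24 of the 35 genes were lower and 4 (NCL, NIP7, NOLC1 and UBTF) were higher under all 16 settings, the one reported included; DKC1, NOP14, NOP2, NOP56, NPM1, PPAN and UTP15 varied. Scaling by library totals alone gave 4 higher members, a median of -0.52, 113 lower and 18 higher genes in the 5 other pathway lists, -0.051 for NOP14 and -0.046 for NOP2; the members' median less that of all genes was -0.35 under both scalings. Leaving out each library gave 24 to 25 lower and 6 to 7 higher members, a median of -0.38 to -0.31, -0.068 to 0.065 for NPM1 and -0.13 to 0.022 for PPAN, which was also above 0 (0.0079) without KMT9a siRNA replicate 3. The replicate numbers did not pair the libraries (correlations of same-numbered deviations -0.041, -0.021 and 0.037 in PC-3M, and -0.071, 0.14 and 0.16 in MCF10A). With the number as a block 24 members were lower and 6 higher in PC-3M, UTP15 and NOP14 missing the threshold (limma, adjusted p = 0.0583 and 0.0896), and 0 in MCF10A. The longest transcript row turned POLR1D to 0.64. In MCF10A, library totals alone gave -0.00585 for MRTO4, -0.29 for NOP58 and -0.046 for UBTF. NOP58 was -0.12 without a filter and -0.026 with control replicates 1 and 2 averaged; leaving out a library gave -0.19 to 0.20 for NOP58 and -0.12 to 0.78 for MRTO4. The cause of these changes was not tested. In MCF10A 32 of 35 members were under the filter, and 34 would have had more than 10 read ends at their PC-3M shares. The part of low depth in these counts was not tested.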

Other observations

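The hg19 spans of 7 members overlap those of small nucleolar RNAs: NOP58, NOP56, DKC1, WDR43, GNL3, PPAN and NCL. Many snoRNAs are known to be released from introns of such host genes. In PC-3M 3 of these hosts rose (NCL, DKC1 and NOP56), 3 fell (WDR43, GNL3 and NOP58) and PPAN did not pass. That is near the shares of all genes at or above the lowest member mean, 42% higher and 40% lower. With scaling by library totals alone the rises of DKC1 and NOP56 did not pass.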
